A study of Homo sapiens with 12 samples.

Results

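The genes described here are the plasminogen activators PLAU and PLAT, the uPA receptor gene PLAUR, the activator inhibitors SERPINE2 and SERPINB2, and the clade B serpins SERPINB1, SERPINB5, SERPINB3 and SERPINB4. They were chosen by symbol, and each of the 9 symbols matched 1 line of a count table with 58735 lines. All 9 were among the 16946 genes that passed the filter on low counts. SERPINB2 was noted because it was lower in SCC-15 cells with TTK knockdown. That contrast is therefore described for SERPINB2 without a test.

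RNA of the oral squamous cell carcinoma lines SCC-15 and CAL-27 was sequenced after poly(A) selection, in 4 groups of 3 libraries. The groups were SCC-15 shTTK, SCC-15 shControl, CAL-27 shTTK and CAL-27 shControl. In the shTTK groups a short hairpin RNA was directed at TTK, a mitotic spindle checkpoint kinase whose link to mTORC1 and NF-kB signalling is the subject of the series. The labels give the genotype of shTTK cells as TTK knockdown and that of shControl cells as WT, and they call all 12 libraries untreated and batch 1. Whether control cells carried a control hairpin, how many hairpins were used, and whether replicates were separate cultures are not stated. The p-values therefore speak for these 12 libraries alone. For the median gene, the variance behind them was drawn more from all genes (64.9 prior degrees of freedom) than from its own libraries (8 residual). Each line is a single established cell line.

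Urokinase (uPA, from PLAU) and tissue-type plasminogen activator (tPA, from PLAT) cleave plasminogen to plasmin, a protease that degrades fibrin and extracellular matrix. The receptor uPAR, from PLAUR, is a lipid-anchored protein that holds uPA at the cell surface, and the serpins PAI-2 (SERPINB2) and protease nexin-1 (SERPINE2) are suicide inhibitors of the activators. Clade B serpins mostly lack a signal peptide and act largely inside cells. Several of them, among them maspin (SERPINB5) and the squamous cell carcinoma antigens (SERPINB3 and SERPINB4), are typical of stratified squamous epithelium.

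The promoter windows of the genes that the results turn on are printed here because the 3 genes of the first set carry an AP-1 motif close to their start. A window is the 250 bases before a RefSeq start on build GRCh38.p14, read 5′ to 3′ on the strand of the gene. Capitals mark the AP-1 motif TGANTCA, in which N is any base, and the TATA box TATAAA, which do not overlap in these windows. SERPINB2 is at chr18:63887455-63887704 (plus strand), PLAUR at chr19:43670170-43670419 (minus strand) and SERPINB5 at chr18:63476708-63476957 (plus strand).
SERPINB2: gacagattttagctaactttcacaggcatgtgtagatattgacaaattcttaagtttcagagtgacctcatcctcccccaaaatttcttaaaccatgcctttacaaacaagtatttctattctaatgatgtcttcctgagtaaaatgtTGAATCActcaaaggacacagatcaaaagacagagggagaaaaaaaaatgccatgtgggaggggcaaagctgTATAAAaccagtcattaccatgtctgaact
PLAUR: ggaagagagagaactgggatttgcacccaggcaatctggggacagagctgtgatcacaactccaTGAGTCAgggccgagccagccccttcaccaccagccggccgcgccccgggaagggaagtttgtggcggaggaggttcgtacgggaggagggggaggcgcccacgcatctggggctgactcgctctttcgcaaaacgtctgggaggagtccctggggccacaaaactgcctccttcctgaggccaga
SERPINB5: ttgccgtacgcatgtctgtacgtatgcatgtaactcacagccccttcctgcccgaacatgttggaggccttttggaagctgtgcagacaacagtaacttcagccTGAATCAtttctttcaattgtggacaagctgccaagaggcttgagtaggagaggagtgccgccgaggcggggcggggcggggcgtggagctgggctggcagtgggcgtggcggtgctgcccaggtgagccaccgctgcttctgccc

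The AP-1 motif began 102 bases before the start of SERPINB2, 186 bases before that of PLAUR and 146 bases before that of SERPINB5. A TATA box began 30 bases before the start of SERPINB2. RefSeq windows were found for 8 of the 9 genes, 10 windows in all, and no other window of the set held either motif on either strand. No window held the kappa-B consensus. Of 35116 RefSeq windows of the same length, 6.57% held the AP-1 motif, 10.7% the TATA box and 9.96% the kappa-B consensus on either strand. For each gene printed here GENCODE release 29 also lists a start upstream of the RefSeq start. A motif match describes the letters and is no evidence of binding.

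The windows of SERPINB3 (chr18:63661894-63662143, minus strand) and SERPINB4 (chr18:63644257-63644506, minus strand) are printed to show how alike these neighbouring copies are. Capitals mark the 3 positions at which they differ, and 247 of 250 bases are identical.
SERPINB3: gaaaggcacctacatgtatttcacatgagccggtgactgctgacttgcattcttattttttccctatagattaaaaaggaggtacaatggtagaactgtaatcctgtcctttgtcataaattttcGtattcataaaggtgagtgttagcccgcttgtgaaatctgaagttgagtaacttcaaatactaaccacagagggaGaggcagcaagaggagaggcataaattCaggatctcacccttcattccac
SERPINB4: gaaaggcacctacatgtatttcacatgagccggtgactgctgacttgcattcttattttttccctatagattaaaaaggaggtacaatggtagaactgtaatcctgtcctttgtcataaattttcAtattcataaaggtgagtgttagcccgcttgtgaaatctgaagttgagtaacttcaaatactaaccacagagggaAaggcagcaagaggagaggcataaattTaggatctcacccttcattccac

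The longest transcripts of SERPINB3 and SERPINB4 were 95.71% identical over their aligned bases. Of the stretches of 50 bases in SERPINB3 transcripts, 23.3% also occur in SERPINB4, and 20.1% of those in SERPINB4 occur in SERPINB3. How reads that map to several places were counted is not given in the sources used here, so the split of counts between this pair is uncertain.

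Total counts lay between 16176655 and 18484112 per library, and levels are given as TMM-scaled CPM, the count of a gene relative to the scaled library total. TTK averaged 30.1 ± 3.80 CPM in SCC-15 shTTK cells and 69.9 ± 2.77 CPM in SCC-15 shControl cells (SD, n = 3 each), and 33.9 ± 1.57 CPM in CAL-27 shTTK cells and 49.4 ± 3.58 CPM in CAL-27 shControl cells. The edgeR log2 fold change of TTK was -1.21 ± 0.065 (SE) in SCC-15 and -0.54 ± 0.066 in CAL-27. By the mean chi-square per gene, the SCC-15 libraries numbered 1 differed more from the other libraries of their group than those did from each other. It was 3.07 and 3.79 against 1.95 for shTTK, and 5.62 and 5.96 against 1.98 for shControl. The median chi-square, relative to counting noise alone, was less far apart. It was 2.195 and 2.63 against 1.77 for shTTK, and 1.92 and 2.11 against 1.76 for shControl. Pairs of CAL-27 shControl libraries lay at 2.07 to 2.14. The sum of 8 squamous epithelial markers was 6501 to 6554 CPM in SCC-15 shTTK and 6666 to 6934 CPM in SCC-15 shControl libraries. In CAL-27 it was 4337 to 4416 CPM in shTTK against 2504 to 2669 CPM in shControl libraries. Its members moved in both directions. In CAL-27, KRT5 averaged 1924 CPM in shTTK and 886 CPM in shControl cells, but CDH1 (418 against 451) and EPCAM (228 against 277) were lower with shTTK. In SCC-15, KRT5 averaged 2205 CPM in shTTK and 2658 CPM in shControl cells, but CDH1 (40.5 against 24.1) and SFN (1034 against 910) were higher with shTTK. In CAL-27 the sum of 4 endothelial markers, nearly all of it CDH5, was 72.4 to 74.3 CPM in shTTK and 102.1 to 109.7 CPM in shControl libraries, with KDR at 0 counts. The sum of 7 fibroblast markers there was 41.3 to 42.3 CPM in shTTK and 32.0 to 37.7 CPM in shControl libraries, with DCN at 0 counts. Most of it was COL1A1 (34.3 CPM in shTTK and 26.7 CPM in shControl cells). Of the others above 1 CPM, COL1A2 (2.55 against 3.15) and PDGFRB (4.26 against 5.18) were lower with shTTK. The sum of 6 leukocyte and blood markers, nearly all of it CD14, was 10.96 to 14.2 CPM in shTTK and 8.12 to 11.9 CPM in shControl libraries, with PTPRC and HBB at 0 counts. In SCC-15 the fibroblast sum was 20.6 to 22.7 CPM in shTTK and 21.2 to 23.0 CPM in shControl libraries, and the leukocyte and endothelial sums were at most 2.25 CPM. The part of these marker differences in the changes below was not tested. In bulk RNA, fewer cells of a type and less RNA per cell cannot be told apart.

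With TTK knockdown in SCC-15, PLAUR, SERPINB5, SERPINE2 and PLAT rose, SERPINB3, SERPINB4 and SERPINB1 fell, and PLAU did not pass the test. Of the 8 genes tested there, 7 were called at an edgeR adjusted p under 0.05 (4 higher, 3 lower), against 27.7% of all tested genes (13.4% higher, 14.3% lower). Without both SCC-15 libraries numbered 1, 4 were called (2 higher, 2 lower), and PLAT, SERPINE2 and SERPINB4 lost their calls. That fit had fewer SCC-15 libraries, and calls over the whole table were fewer as well. It called 1745 genes higher and 1912 lower of 17344 tested, against 2277 and 2417 of 16946 with all libraries. In CAL-27, PLAT, SERPINB5 and SERPINB1 rose, PLAU and PLAUR fell, and SERPINE2, SERPINB2, SERPINB3 and SERPINB4 did not pass. That is 5 of 9 genes (3 higher, 2 lower), against 27.3% of all tested genes (11.6% higher, 15.7% lower). Over the 8 genes other than SERPINB2, the median absolute log2 fold change was 0.37 in SCC-15 and 0.31 in CAL-27, against 0.17 over all genes in each line. The median signed change of these 8 was 0.09 in SCC-15 and 0.01 in CAL-27, against 0.00 and -0.01 over all genes.

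Of the 8 genes other than SERPINB2, all 3 shTTK libraries lay above all 3 shControl libraries for 4 in SCC-15 and below them for the other 4. Over all tested genes in SCC-15 these shares were 19.3% above and 19.6% below. In CAL-27 the groups were apart with shTTK above for 3 of the 8 and with shTTK below for 2, against 17.1% above and 21.3% below over all tested genes. For the remaining 3, as for SERPINB2, the CAL-27 libraries overlapped.

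**Figure D1:**
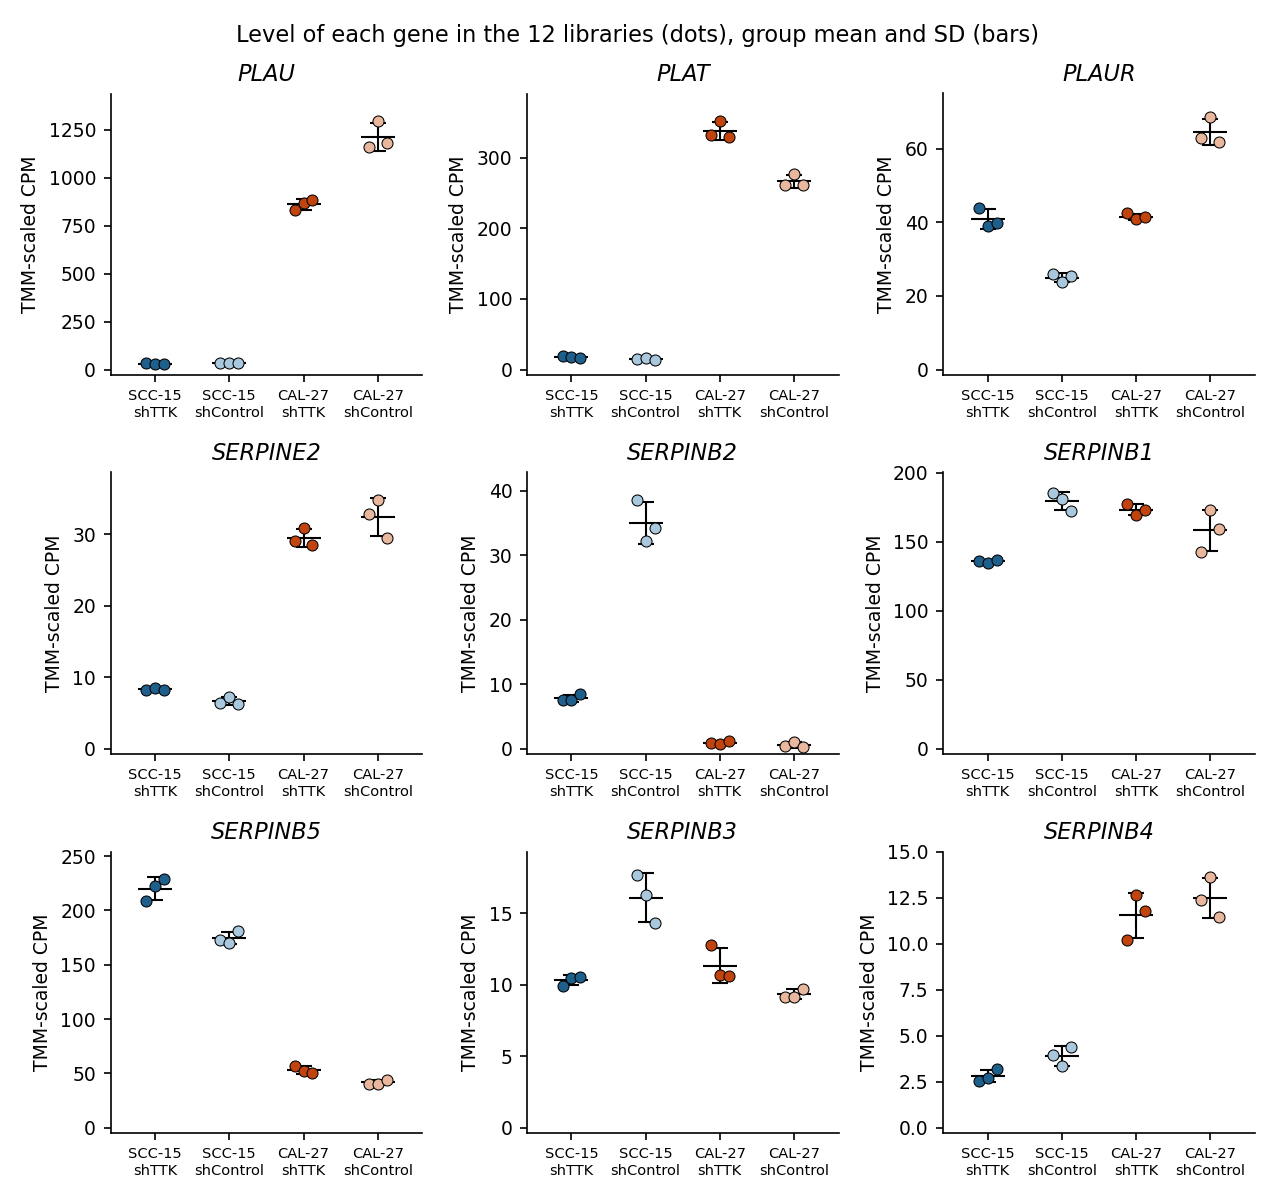
TMM-scaled CPM (y axis, a linear scale for each gene) of the 9 genes in the SCC-15 shTTK, SCC-15 shControl, CAL-27 shTTK and CAL-27 shControl libraries. Dots are libraries and bars are the mean and SD of 3 libraries. SERPINB2 stands at 7.49 to 8.44 CPM in SCC-15 shTTK and at 32.2 to 38.5 CPM in SCC-15 shControl libraries, and PLAU is above 830 CPM in every CAL-27 library and under 34 CPM in every SCC-15 library.

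PLAU (ENSG00000122861.15, chr10:73909177-73917497, plus strand, GRCh38) encodes uPA. It had 31.7, 30.01 and 30.5 CPM in SCC-15 shTTK libraries and 33.2, 33.1 and 31.7 CPM in SCC-15 shControl libraries. The highest shTTK and the lowest shControl library were level at this precision. PLAU did not pass the test in SCC-15, at a log2 fold change of -0.09 ± 0.051 (edgeR adjusted p = 0.217). The CAL-27 values of PLAU were 830.3, 869.5 and 886 CPM in shTTK libraries, against 1159, 1295 and 1180.0 CPM in shControl libraries. Every CAL-27 shTTK library lay below every shControl library. PLAU fell by 0.49 ± 0.032 on the log2 scale in CAL-27, to 71.1% of the control level (edgeR adjusted p = 1.56e-21), and it was called lower under all 22 alternatives. The SCC-15 change exceeded the CAL-27 change by 0.40 ± 0.060 (edgeR adjusted p = 1.33e-07). Exons of C10orf55, on the opposite strand, cover 31.1% of the exon bases of PLAU, and the strand setting of the counting is not given in the sources used here. C10orf55 itself averaged 9.50 ± 0.550 CPM in CAL-27 shTTK and 10.7 ± 1.31 CPM in CAL-27 shControl cells (SD, n = 3 each).

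PLAT (ENSG00000104368.17, chromosome 8) encodes tPA. SCC-15 shTTK libraries had 19.8, 17.2 and 17.04 CPM, and SCC-15 shControl libraries had 15.3, 15.7 and 13.8 CPM. In CAL-27 it had 332.4, 351.6 and 328.7 CPM in shTTK libraries, against 261.5, 276.8 and 261 CPM in shControl libraries. In each line all shTTK libraries were above all shControl libraries. PLAT rose by 0.27 ± 0.071 in SCC-15 (edgeR adjusted p = 0.00199) and by 0.34 ± 0.036 in CAL-27 (edgeR adjusted p = 1.11e-12). The changes differed between lines by -0.07 ± 0.080 (SCC-15 minus CAL-27, edgeR adjusted p = 0.580), so no difference was detected. Without both SCC-15 libraries numbered 1, the SCC-15 change was 0.22 with an adjusted p of 0.0572.

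PLAUR (ENSG00000011422.11, chr19:43646095-43670547, minus strand, GRCh38), the gene of the uPA receptor, changed in opposite directions in the lines. It had 43.9, 39.0 and 39.8 CPM in SCC-15 shTTK libraries, against 26.0, 23.6 and 25.3 CPM in SCC-15 shControl libraries. Every shTTK library of SCC-15 was higher than every control library. In CAL-27 it had 42.4, 40.9 and 41.3 CPM in shTTK libraries, against 63.0, 68.5 and 61.9 CPM in shControl libraries, and there every shTTK library was lower. PLAUR rose by 0.71 ± 0.066 in SCC-15, to 163.7% of control (edgeR adjusted p = 1.06e-14). It fell by 0.63 ± 0.060 on the log2 scale in CAL-27, to 64.4% of control (edgeR adjusted p = 1.13e-14). The difference of the changes, SCC-15 minus CAL-27, was 1.35 ± 0.089 (edgeR adjusted p = 1.30e-21), and these calls held under every alternative run. The shTTK groups of the lines stood at nearly the same mean level, 40.9 ± 2.64 CPM in SCC-15 and 41.5 ± 0.797 CPM in CAL-27 (SD, n = 3 each).

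SERPINE2 (ENSG00000135919.12, chr2:223975112-224039319, minus strand, GRCh38) encodes protease nexin-1, a secreted inhibitor of thrombin, uPA and tPA. It had 8.16, 8.47 and 8.21 CPM in SCC-15 shTTK libraries, against 6.40, 7.23 and 6.22 CPM in SCC-15 shControl libraries. The SCC-15 groups did not overlap, and SERPINE2 rose by 0.32 ± 0.12 on the log2 scale (edgeR adjusted p = 0.0286). In CAL-27 the shTTK libraries had 29.1, 30.9 and 28.5 CPM and the shControl libraries 32.8, 34.8 and 29.5 CPM, which overlap (-0.13 ± 0.078, edgeR adjusted p = 0.216). The SCC-15 change exceeded that in CAL-27 by 0.46 ± 0.14 (edgeR adjusted p = 0.00967). The SCC-15 call rested on few counts (434 in shTTK and 344 in shControl libraries) and was held by 15 of 22 alternatives. It ended with limma-voom (0.33, adjusted p = 0.0734), with each line fitted alone (0.32, adjusted p = 0.0584) and without both SCC-15 libraries numbered 1 (0.31, adjusted p = 0.110). It also ended without SCC-15 shTTK library 2 or 3 or shControl library 1 or 3, at changes between 0.29 and 0.33 and adjusted p between 0.0531 and 0.106.

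SERPINB2 (ENSG00000197632.8, chr18:63871692-63903890, plus strand, GRCh38), which encodes PAI-2, had 7.52, 7.49 and 8.44 CPM in SCC-15 shTTK libraries. SCC-15 shControl libraries had 38.5, 32.2 and 34.2 CPM. The groups were far apart, and shTTK cells held 22.4% of the control level, a log2 fold change of -2.16 ± 0.11 that stayed between -2.22 and -2.06 in the alternatives. This is the value for which the gene was noted, so it is given as a description. In CAL-27 the gene was near the limit of detection, with 14, 13 and 19 counts in shTTK libraries and 8, 19 and 3 counts in shControl libraries. These libraries overlapped, and the log2 fold change was 0.68 ± 0.36 (edgeR adjusted p = 0.159). Without CAL-27 shControl library 2 the change was 1.51 with an adjusted p of 0.00649, so that library decides the call. The difference between the lines (SCC-15 minus CAL-27) was -2.84 ± 0.38 and was not tested, since it holds the contrast used for the choice. It was -3.66 without CAL-27 shControl library 2 and -2.45 without CAL-27 shControl library 3. SERPINB10 overlaps 19.9% of the exon bases of SERPINB2 on the same strand. SERPINB10 held 3 counts in all SCC-15 shTTK and 12 in all SCC-15 shControl libraries.

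SERPINB1 (ENSG00000021355.12, chr6:2832332-2842006, minus strand, GRCh38) encodes an inhibitor of neutrophil elastase, cathepsin G and proteinase 3. It had 135.9, 134.6 and 136.6 CPM in SCC-15 shTTK libraries, against 185.6, 180.8 and 172.5 CPM in SCC-15 shControl libraries, with no overlap. It fell by 0.40 ± 0.044 on the log2 scale there (edgeR adjusted p = 1.40e-09). The CAL-27 libraries had 177.3, 169.3 and 172.9 CPM with shTTK and 142.6, 172.9 and 159 CPM with shControl, and these overlapped. In CAL-27 the log2 fold change was 0.13 ± 0.044 (edgeR adjusted p = 0.0229) and was 0.05 with an adjusted p of 0.398 without CAL-27 shControl library 1, the lowest of its group. The call also ended without CAL-27 shControl library 3 (0.13, adjusted p = 0.0705) and without SCC-15 shTTK library 3 (0.13, adjusted p = 0.0549). Each line fitted alone did not give it either (0.15, adjusted p = 0.0589), nor did the fit without both SCC-15 libraries numbered 1 (0.13, adjusted p = 0.0566). In all, 17 of 22 alternatives held the CAL-27 call. The changes differed by -0.54 ± 0.062 (SCC-15 minus CAL-27, edgeR adjusted p = 8.02e-09).

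SERPINB5 (ENSG00000206075.13, chr18:63476761-63505085, plus strand, GRCh38) encodes maspin, a serpin without known protease-inhibiting activity that was first described as a tumour suppressor in breast epithelium. It had 208.5, 222.9 and 228.6 CPM in SCC-15 shTTK libraries, against 172.5, 170.2 and 181 CPM in SCC-15 shControl libraries. CAL-27 shTTK libraries had 57.0, 52.1 and 49.96 CPM and CAL-27 shControl libraries had 40.1, 40.6 and 44.2 CPM. All shTTK libraries were above all shControl libraries in each line. SERPINB5 rose by 0.33 ± 0.039 in SCC-15 (edgeR adjusted p = 9.57e-11) and by 0.35 ± 0.052 in CAL-27 (edgeR adjusted p = 9.97e-08). The difference was -0.02 ± 0.065 (SCC-15 minus CAL-27, edgeR adjusted p = 0.911) and lay between -0.07 and 0.03 in the alternatives.

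SERPINB3 (ENSG00000057149.15, chr18:63655197-63661963, minus strand, GRCh38) and SERPINB4 (ENSG00000206073.10, chr18:63637259-63644298, minus strand, GRCh38) encode the squamous cell carcinoma antigens, inhibitors of lysosomal cysteine proteases and of chymotrypsin-like serine proteases. SERPINB3 had 9.91, 10.5 and 10.6 CPM in SCC-15 shTTK libraries, against 17.7, 16.3 and 14.3 CPM in SCC-15 shControl libraries. The SCC-15 groups were apart, and SERPINB3 fell by 0.64 ± 0.11 on the log2 scale (edgeR adjusted p = 1.32e-06). In CAL-27 it had 12.7, 10.6 and 10.6 CPM in shTTK libraries and 9.15, 9.10 and 9.72 CPM in shControl libraries, all shTTK libraries being higher. In CAL-27 the log2 fold change was 0.28 ± 0.11 (edgeR adjusted p = 0.0592), and 7 of 22 alternatives called it. With SERPINB3 and SERPINB4 summed it was 0.07 (adjusted p = 0.608). It passed without CAL-27 shTTK library 3 (0.35, adjusted p = 0.0382), without SCC-15 shControl library 2 (0.30, adjusted p = 0.0499) or 3 (0.30, adjusted p = 0.0434), and without SCC-15 shTTK library 1 (0.30, adjusted p = 0.0430) or 2 (0.30, adjusted p = 0.0492). It also passed with each line fitted alone (0.30, adjusted p = 0.0483) and with library totals taken before the filter (0.30, adjusted p = 0.0423). SERPINB3 thus differed between the lines by -0.92 ± 0.16 (SCC-15 minus CAL-27, edgeR adjusted p = 2.32e-06), and by -0.67 with the pair summed.

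SERPINB4 had 2.51, 2.71 and 3.19 CPM in SCC-15 shTTK libraries and 3.94, 3.33 and 4.398 CPM in SCC-15 shControl libraries. These groups did not overlap, and the log2 fold change was -0.47 ± 0.18 (edgeR adjusted p = 0.0395). With 147 counts in all SCC-15 shTTK and 202 in all SCC-15 shControl libraries, the call was held by 12 of 21 alternatives. It was lost with DESeq2 (adjusted p = 0.0606), limma-voom (adjusted p = 0.0948), no count filter (adjusted p = 0.0933) and each line fitted alone (adjusted p = 0.0701). It was also lost without both SCC-15 libraries numbered 1 (-0.39, adjusted p = 0.217). Leaving out shControl library 1 or 3 or shTTK library 1 or 2 ended it as well, at changes of -0.46 to -0.37 and adjusted p of 0.0876 to 0.192. CAL-27 libraries had 10.2, 12.7 and 11.8 CPM with shTTK and 12.4, 13.6 and 11.5 CPM with shControl, which overlap (-0.11 ± 0.12, edgeR adjusted p = 0.567). The changes of SERPINB4 differed between lines by -0.36 ± 0.22 (SCC-15 minus CAL-27, edgeR adjusted p = 0.250).

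SERPINB3 took 76.8% to 79.8% of the counts of the pair in SCC-15 shTTK and 76.5% to 83.0% in SCC-15 shControl libraries. It took 45.7% to 55.5% in CAL-27 shTTK and 40.1% to 45.9% in CAL-27 shControl libraries. The share thus moved with the line more than with the knockdown. Exons of SERPINB11, on the opposite strand, cover 34.9% of the exon bases of SERPINB3. SERPINB11 had 0 counts in all 12 libraries.

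**Figure D2:**
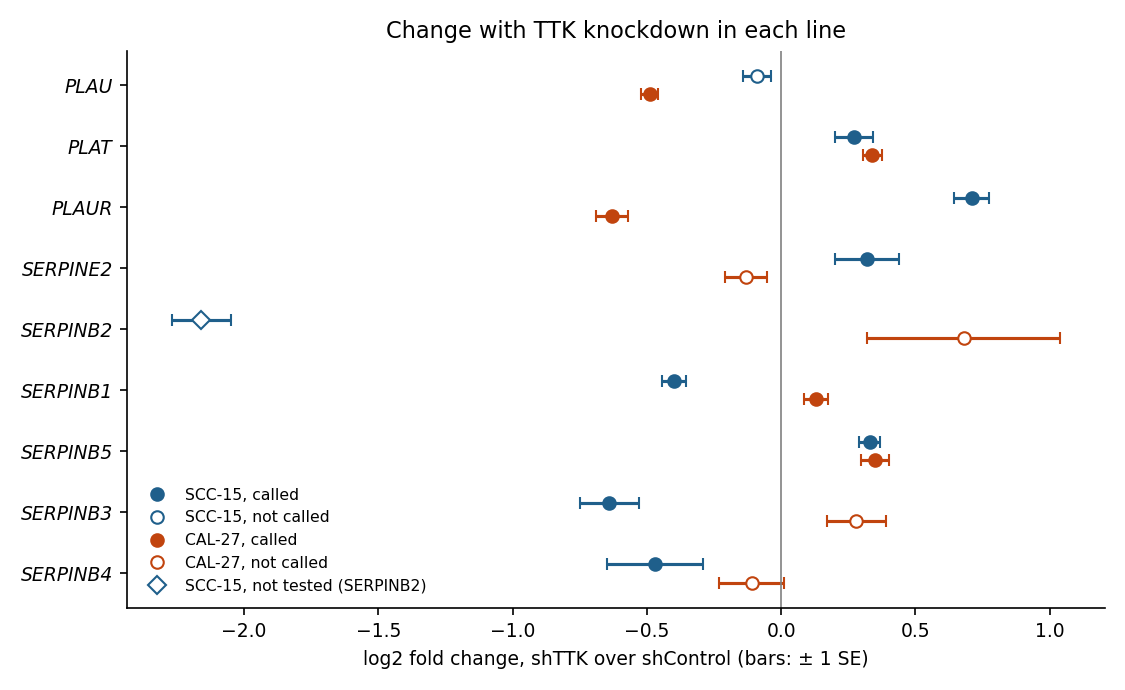
Log2 fold change of shTTK over shControl (x axis, bars ± 1 SE) for each gene, SCC-15 above CAL-27. Filled circles are called at an edgeR adjusted p under 0.05, open circles are not, and the open diamond is SERPINB2 in SCC-15, which was not tested. PLAUR is at 0.71 in SCC-15 and at -0.63 in CAL-27, while PLAT and SERPINB5 are higher in each line by 0.27 to 0.35.

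The difference between the lines was itself tested for the 8 genes other than SERPINB2. Of these, 5 were called, against 25.4% of all tested genes. The SCC-15 change was the higher for PLAU, PLAUR and SERPINE2 and the lower for SERPINB3 and SERPINB1. No difference was detected for PLAT, SERPINB5 and SERPINB4. The count was 5 without any single library.

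The control libraries of the lines differed at all 8 genes other than SERPINB2, against 76% of all tested genes, with 3 higher in SCC-15 (37.8% of all tested genes) and 5 lower (38.2%). This contrast uses the same control libraries as the knockdown contrasts, so SERPINB2 is described here without a test. SERPINB2 averaged 34.9 ± 3.20 CPM in SCC-15 and 0.562 ± 0.437 CPM in CAL-27 (SD, n = 3 each), a 62.2-fold higher mean in SCC-15 and a fitted log2 difference of 5.90 ± 0.18. With 8, 19 and 3 counts in the CAL-27 shControl libraries this size is imprecise, and it was 6.70 without CAL-27 shControl library 2 and 5.52 without CAL-27 shControl library 3. SERPINB5 was 4.19-fold higher in SCC-15, SERPINB3 1.73-fold and SERPINB1 1.14-fold. PLAU was lower in SCC-15, at 32.7 ± 0.814 CPM against 1211 ± 73.2 CPM in CAL-27 (SD, n = 3 each), a log2 difference of -5.21 ± 0.042 (edgeR adjusted p = 8.00e-78). PLAT was lower in SCC-15 by a log2 difference of -4.16, SERPINE2 by -2.29, SERPINB4 by -1.68 and PLAUR by -1.37. CAL-27 control cells thus held more PLAU, PLAT and PLAUR, but also more of the inhibitor gene SERPINE2 and of SERPINB4. SCC-15 control cells held more SERPINB2, SERPINB5, SERPINB3 and SERPINB1. When the counts of SERPINB3 and SERPINB4 were summed, the difference between SCC-15 and CAL-27 controls was -0.13 (adjusted p = 0.165), whereas SERPINB3 alone was higher in SCC-15 by 0.79 ± 0.11.

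Levels of different genes were compared per kilobase of exon union. In SCC-15 shTTK cells SERPINB5 was the highest of the 9 genes, at 55.9 ± 2.64 CPM per kb, followed by SERPINB1 at 43.9 ± 0.320 (SD, n = 3 each). PLAU, PLAUR and SERPINB3 came next, at 10.4, 9.18 and 5.81 CPM per kb. SERPINB2 at 2.84 CPM per kb and PLAT at 2.72 did not differ beyond the spread of their libraries, and SERPINB4 and SERPINE2 were lowest. In SCC-15 shControl cells the order was SERPINB1 at 58.1 ± 2.15, SERPINB5 at 44.3 ± 1.45, SERPINB2 at 12.7 ± 1.16 and PLAU at 11.1 ± 0.276 CPM per kb (SD, n = 3 each). SERPINB3, PLAUR, PLAT, SERPINB4 and SERPINE2 followed, and only PLAT and SERPINB4 overlapped. SERPINB2 thus stood at rank 6 in SCC-15 shTTK and at rank 3 in SCC-15 shControl cells.

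PLAU was the highest gene in CAL-27, at 292.2 ± 9.72 CPM per kb in shTTK and 410.6 ± 24.8 CPM per kb in shControl cells (SD, n = 3 each). It made up 66.8% of the summed level of the 9 genes in CAL-27 shTTK and 75.7% in CAL-27 shControl cells. SERPINB1 was next, at 56.0 CPM per kb in CAL-27 shTTK and 51.1 in CAL-27 shControl cells, and PLAT followed at 51.0 and 40.3 CPM per kb in these groups. SERPINB5 ranked above PLAUR in CAL-27 shTTK cells (13.5 and 9.32 CPM per kb) and below it in CAL-27 shControl cells (10.6 and 14.5 CPM per kb). SERPINB3 and SERPINB4 overlapped in CAL-27 shTTK libraries but not in CAL-27 shControl libraries. SERPINE2 was next to last and SERPINB2 last in each CAL-27 group. PLAUR and PLAT have an exon union much longer than their longest transcript (4457 against 1610 and 6618 against 3462 bases), so their ranks depend on the length used. With the longest transcript, PLAT stood above SERPINB1 in CAL-27 shTTK cells (97.5 against 66.1 CPM per kb) and in CAL-27 shControl cells (77.0 against 60.4). PLAUR stood above SERPINB5 in CAL-27 shTTK cells as well, at 25.8 against 19.1 CPM per kb, and SERPINE2 above SERPINB3 in CAL-27 shControl cells, at 5.41 against 5.25. In SCC-15, PLAUR then stood above PLAU in shTTK cells (25.4 against 11.6) and in shControl cells (15.5 against 12.3), and PLAT above SERPINB2 in shTTK cells (5.20 against 3.63).

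**Figure D3:**
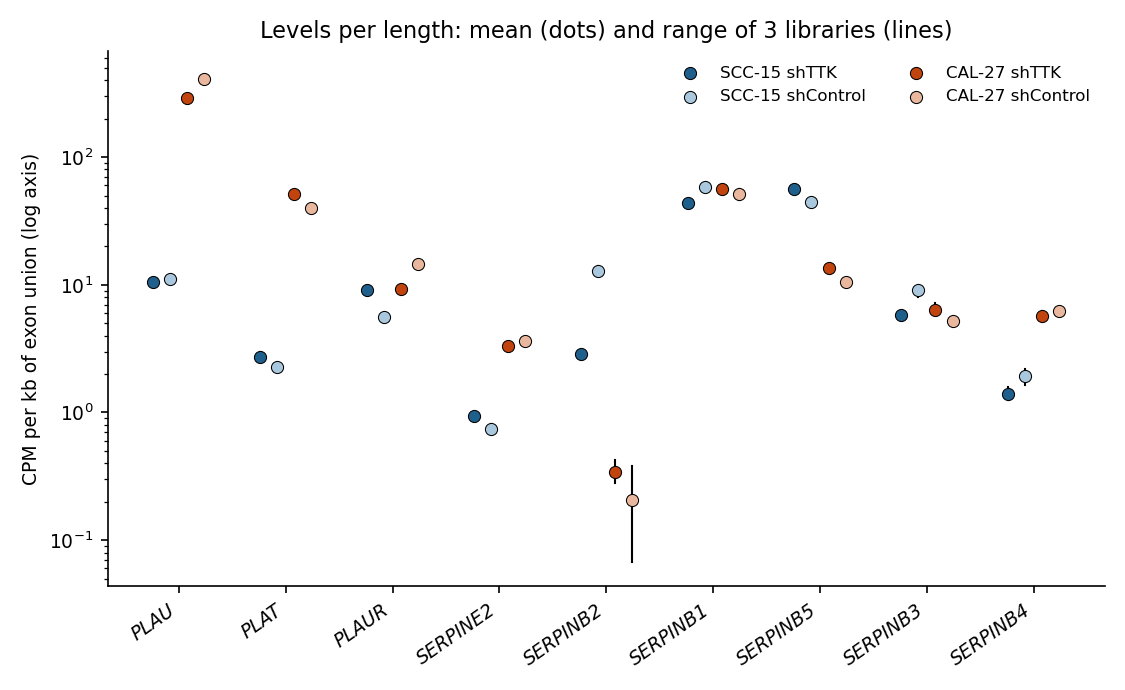
Level per kilobase of exon union (y axis, log scale, CPM per kb) of the 9 genes in the 4 groups. Dots are means and lines the range of 3 libraries. PLAU spans 10.4 CPM per kb in SCC-15 shTTK to 410.6 CPM per kb in CAL-27 shControl cells, and SERPINB2 spans 12.7 CPM per kb in SCC-15 shControl to 0.204 CPM per kb in CAL-27 shControl cells.

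By the rule of highest Pearson r of log2(CPM + 1) over the 12 libraries, the genes most like SERPINB2 were RAP1GDS1, FOLR1, FABP4, FLG and NNT, with r of 0.994, 0.994, 0.991, 0.991 and 0.990 among 11384 genes compared. FABP4, a fatty acid-binding protein, averaged 2.69 CPM in SCC-15 shTTK and 11.1 CPM in SCC-15 shControl cells, and under 0.05 CPM in each CAL-27 group. FLG, the filaggrin of cornifying keratinocytes, averaged 6.85 CPM in SCC-15 shTTK and 24.3 CPM in SCC-15 shControl cells, and 0.387 CPM in CAL-27 shTTK and 0.590 CPM in CAL-27 shControl cells. The folate receptor gene FOLR1 averaged 6.72 CPM in SCC-15 shTTK and 18.9 CPM in SCC-15 shControl cells. RAP1GDS1 and NNT had smaller changes in SCC-15 and were expressed in CAL-27 too. RAP1GDS1 averaged 38.0 CPM in SCC-15 shTTK, 65.0 in SCC-15 shControl, 19.3 in CAL-27 shTTK and 19.2 in CAL-27 shControl cells. NNT averaged 28 CPM, 37.6, 22.3 and 20.8 in these groups in turn. The 12 libraries share the difference between the lines and the SCC-15 contrast that chose SERPINB2, so r is given as a description with no test.

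SERPINB2, SERPINB3, SERPINB4 and SERPINB5 lie in a cluster of 10 clade B serpin genes that spans 543.0 kb of chromosome 18, while SERPINB1 lies with SERPINB6 and SERPINB9 on chromosome 6. SERPINB13, the headpin of stratified epithelium, averaged 82.8 ± 5.71 CPM in SCC-15 shTTK and 115.2 ± 3.49 CPM in SCC-15 shControl cells, and 11.3 ± 1.07 CPM in CAL-27 shTTK and 3.995 ± 0.616 CPM in CAL-27 shControl cells (SD, n = 3 each). It fell by 0.48 ± 0.052 on the log2 scale in SCC-15 (edgeR adjusted p = 4.32e-12) and rose by 1.51 ± 0.12 in CAL-27 (edgeR adjusted p = 3.09e-18). Its changes differed by -1.99 ± 0.13 (SCC-15 minus CAL-27, edgeR adjusted p = 4.20e-22). Of the 8 clade B serpins outside the set, 5 were tested, and 3 were lower and 0 higher in SCC-15, against 14.3% lower and 13.4% higher of all tested genes. SERPINB9 is 1 of the 5 but held only 4 counts in the 6 SCC-15 libraries. These were SERPINB13, SERPINB8 (-0.31 ± 0.10, edgeR adjusted p = 0.0175) and SERPINB7 (-0.87 ± 0.28, edgeR adjusted p = 0.0115), the last below the level of the naming rule and named after its values were seen. The count was 1 without SCC-15 shTTK library 1, where SERPINB8 stood at -0.22 (adjusted p = 0.171) and SERPINB7 at -0.75 (adjusted p = 0.0610). SERPINB7 also lost its call without SCC-15 shControl library 3 (-0.72, adjusted p = 0.0817), and SERPINB8 lost its call with DESeq2 (-0.30, adjusted p = 0.0538) and without both SCC-15 libraries numbered 1 (-0.16, adjusted p = 0.422). SERPINB8 also lost its call without SCC-15 shControl library 1 (-0.25, adjusted p = 0.128) or shTTK library 2 (-0.28, adjusted p = 0.0806). In CAL-27, 1 of the 5 was called higher, SERPINB13, and 0 lower, against 11.6% and 15.7% of all tested genes. SERPINB5 was the only gene of the cluster called higher in each line.

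**Figure D4:**
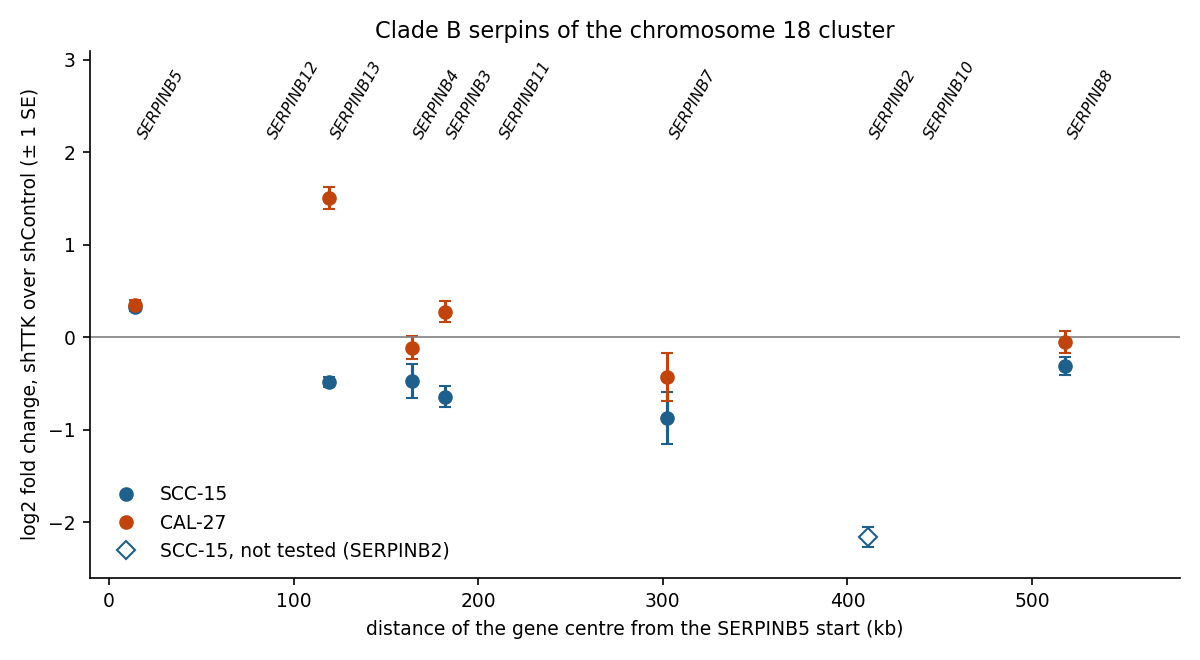
Log2 fold change of shTTK over shControl (y axis, bars ± 1 SE) of the clade B serpins of the chromosome 18 cluster against the distance of the gene centre from the start of SERPINB5 (x axis, kb). Genes that stayed under 1 CPM in a line are named without a point for it. In SCC-15, SERPINB5 is at 0.33 and the other genes with a point are below 0, with SERPINB2 (open diamond, not tested) at -2.16. SERPINB13 is at 1.51 in CAL-27.

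Among genes of the wider pathway, plasminogen itself was close to absent, with 1 count in all SCC-15 shTTK and 0 in all SCC-15 shControl libraries, and 3 counts in all CAL-27 shTTK and 2 in all CAL-27 shControl libraries. The counts of the wider lists stand against 27.7% of all tested genes called in SCC-15 (13.4% higher, 14.3% lower) and 27.3% in CAL-27 (11.6% higher, 15.7% lower). Of 5 tested proteases that make plasmin or activate uPA, 3 were higher and 0 lower in SCC-15, and 2 were higher and 1 lower in CAL-27. Cathepsin B (CTSB), which can activate pro-uPA, rose in each line, by 0.21 ± 0.029 in SCC-15 (edgeR adjusted p = 9.04e-09) and by 0.39 ± 0.028 in CAL-27 (edgeR adjusted p = 2.10e-20). Matriptase (ST14), another activator of pro-uPA, rose by 0.28 ± 0.042 in SCC-15 (edgeR adjusted p = 1.52e-07) and was lower in CAL-27 at -0.12 ± 0.037 (edgeR adjusted p = 0.0141). Its CAL-27 call ended without CAL-27 shControl library 2, CAL-27 shTTK library 1 or 3, or SCC-15 shTTK library 2, at -0.10 to -0.07 and adjusted p of 0.0539 to 0.248. Cathepsin L (CTSL) rose by 0.40 ± 0.046 in SCC-15 (edgeR adjusted p = 6.42e-11). The transmembrane protease TMPRSS4 averaged 19.8 ± 2.51 CPM in CAL-27 shTTK and 7.59 ± 0.986 CPM in CAL-27 shControl cells (SD, n = 3 each), a rise of 1.38 ± 0.12 (edgeR adjusted p = 3.58e-16).

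Of the 5 other inhibitors of plasmin and its activators that were listed, 3 were tested, with 0 higher and 1 lower in SCC-15 and 1 higher and 0 lower in CAL-27. Of all tested genes, 27.7% were called in SCC-15 and 27.3% in CAL-27. SERPINA5 is 1 of the 3 but held only 2 counts in the 6 SCC-15 libraries. The protein C inhibitor SERPINA5 rose by 0.55 ± 0.13 in CAL-27 (edgeR adjusted p = 9.30e-04), but not without CAL-27 shTTK library 2 (0.39, adjusted p = 0.0652), where the list's count was 0. SERPINF2, the main plasmin inhibitor of blood, is named after its values were seen. It averaged 2.34 ± 0.603 CPM in SCC-15 shTTK and 3.84 ± 0.589 CPM in SCC-15 shControl cells (SD, n = 3 each) and was called lower (-0.72 ± 0.19, edgeR adjusted p = 0.00221). The count of the list in SCC-15 was 0 without SCC-15 shTTK library 3.

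Genes of proteins that bind plasminogen at the cell surface were 4 higher and 1 lower of 6 in SCC-15, and 1 higher and 4 lower of 6 in CAL-27. The shares over all tested genes were 13.4% higher and 14.3% lower in SCC-15, and 11.6% higher and 15.7% lower in CAL-27. KRT8, a keratin that can bind plasminogen when exposed, rose by 0.48 ± 0.028 in SCC-15 (edgeR adjusted p = 5.30e-25) and fell by 0.68 ± 0.028 in CAL-27 (edgeR adjusted p = 3.17e-34). The plasminogen receptor gene PLGRKT likewise rose by 0.68 ± 0.17 in SCC-15 (edgeR adjusted p = 0.00103) and fell by 0.51 ± 0.14 in CAL-27 (edgeR adjusted p = 0.00418). Without CAL-27 shTTK library 1 its CAL-27 change was -0.36 with an adjusted p of 0.0963. The CAL-27 count was 3 without that library. S100A10, the annexin A2 partner that binds plasminogen, rose in each line, by 0.27 ± 0.036 in SCC-15 (edgeR adjusted p = 1.89e-08). The annexin A2 gene itself, ANXA2, is named after its values were seen. It was lower in each line, at -0.21 ± 0.028 in SCC-15 (edgeR adjusted p = 2.09e-09) and -0.07 ± 0.028 in CAL-27 (edgeR adjusted p = 0.0378). HMGB1 fell by 0.30 ± 0.033 in CAL-27 (edgeR adjusted p = 1.39e-11).

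Genes listed for the clearance of activator-inhibitor complexes were 0 higher and 3 lower of 7 in SCC-15, and 2 higher and 2 lower of 7 in CAL-27. Of all tested genes, 27.7% were called in SCC-15 and 27.3% in CAL-27. The list is broad, and not every gene in it, LRPAP1 and IGF2R among them, encodes a receptor for such complexes. LRP1, the main endocytic receptor of these complexes, averaged 313.5 ± 18.5 CPM in SCC-15 shTTK and 375.3 ± 8.35 CPM in SCC-15 shControl cells, and 162.7 ± 15.8 CPM in CAL-27 shTTK and 81.3 ± 2.72 CPM in CAL-27 shControl cells (SD, n = 3 each). LRP1 fell by 0.26 ± 0.056 in SCC-15 (edgeR adjusted p = 0.00306) and rose by 1.00 ± 0.065 in CAL-27 (edgeR adjusted p = 2.94e-08). IGF2R fell in each line, by 0.16 ± 0.031 in SCC-15 (edgeR adjusted p = 3.68e-05) and by 0.21 ± 0.031 in CAL-27 (edgeR adjusted p = 5.87e-08). LRP8 fell by 0.38 ± 0.039 in CAL-27 (edgeR adjusted p = 1.75e-13). In SCC-15 its change was -0.10 ± 0.036 (edgeR adjusted p = 0.0267), a call held by 15 of 22 alternatives that ended without any 1 of the 3 shControl libraries or shTTK library 2 or 3, at -0.11 to -0.08 and adjusted p of 0.0545 to 0.150.

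Ligands and membrane partners of uPAR were 2 higher and 3 lower of 7 in SCC-15, and 2 higher and 1 lower of 7 in CAL-27, where the count was 4 higher and 1 lower without SCC-15 shTTK library 1. Of all tested genes, 27.7% were called in SCC-15 and 27.3% in CAL-27, and ITGAM, 1 of the 7, held only 27 counts in the 6 SCC-15 libraries. EGFR, a growth factor receptor that can signal with uPAR, fell by 0.52 ± 0.030 in SCC-15 (edgeR adjusted p = 2.35e-25) and rose by 0.24 ± 0.029 in CAL-27 (edgeR adjusted p = 8.38e-11). The fibronectin receptor subunit ITGA5 rose by 0.21 ± 0.039 in SCC-15 (edgeR adjusted p = 1.33e-05) and by 0.18 ± 0.040 in CAL-27 (edgeR adjusted p = 2.29e-04). ITGA3 fell by 0.29 ± 0.029 in SCC-15 (edgeR adjusted p = 1.81e-13), and ITGB5, a subunit of a vitronectin receptor, fell by 0.66 ± 0.050 in CAL-27 (edgeR adjusted p = 4.62e-19). Over all 42 tested genes of these lists and the serpin lists, 9 were higher and 13 lower in SCC-15, and 10 were higher and 10 lower in CAL-27, against 27.7% of all tested genes called in SCC-15 and 27.3% in CAL-27. In SCC-15, 6 of the 42 held under 30 counts in the 6 libraries, and 36 did not.

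**Figure D5:**
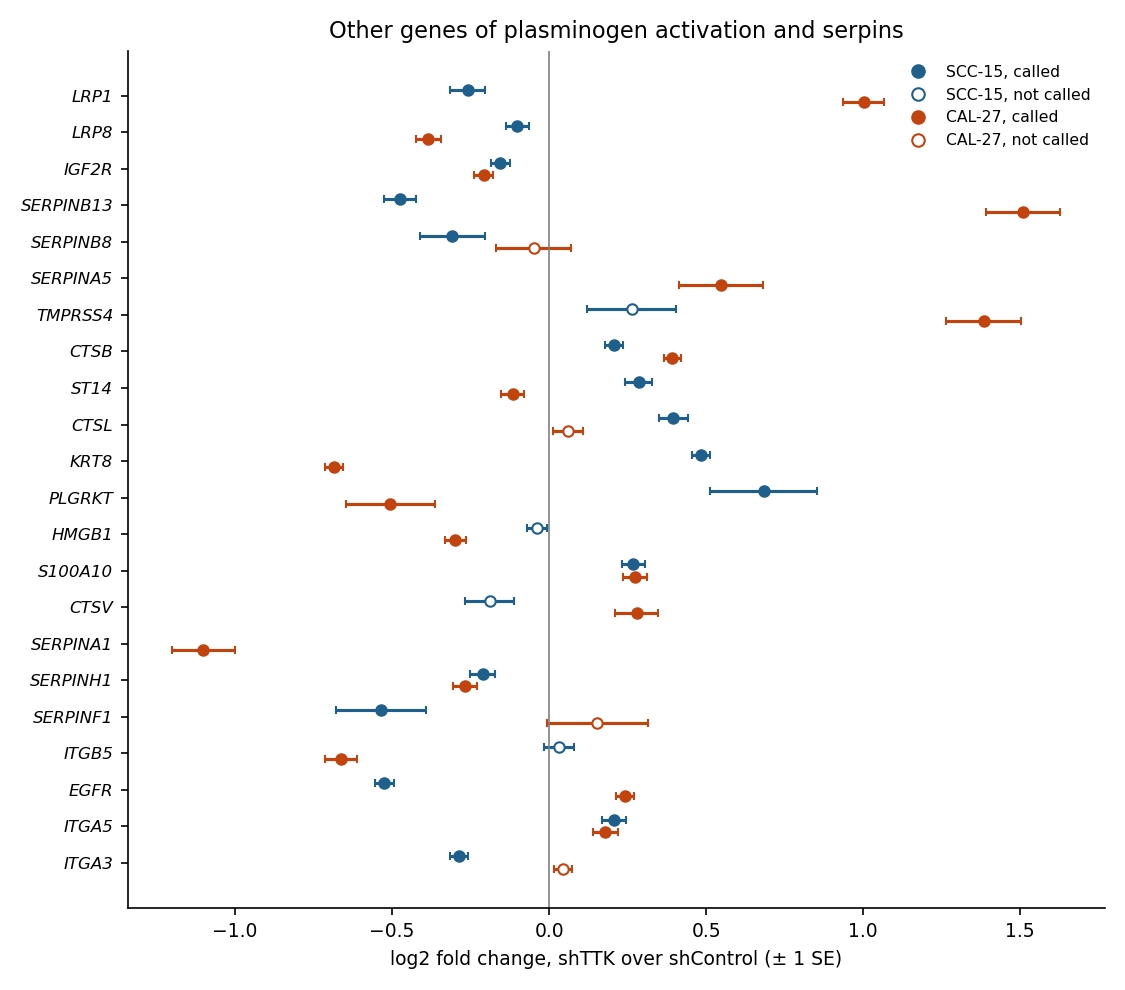
Log2 fold change of shTTK over shControl (x axis, bars ± 1 SE) of the genes named from the wider lists, SCC-15 above CAL-27. Filled circles are called at an edgeR adjusted p under 0.05, and a gene that stayed under 1 CPM in a line has no point for it. KRT8, PLGRKT and ST14 are right of 0 in SCC-15 and left of 0 in CAL-27, and SERPINB13, LRP1 and EGFR are the other way round.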

How the data were processed

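Poly(A) RNA of 12 libraries was sequenced as strand-specific paired reads, per the labels' protocols. The tools listed in the submitters' processing notes are featureCounts 2.0.1, STAR 2.7.7a and Trim Galore 0.6.6, and the build is hg38. The values the authors deposited are raw counts for each gene symbol. Not given in the sources used here: the annotation release, the strand setting and how multi-mapping reads were handled.

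Counts were filtered with edgeR's filterByExpr on the 4 groups (16946 of 58735 lines kept), library totals were recomputed, and TMM scaling was applied. The edgeR 4.0.16 quasi-likelihood test (R 4.3.3, limma 3.58.1, robust, 8 residual degrees of freedom) was fitted to the 12 libraries with 4 group means. The median prior degrees of freedom, the weight of the variance shared over genes, were 64.9. The common biological coefficient of variation was 0.0393. P-values are two-sided, adjusted by Benjamini-Hochberg over all tested genes of a contrast, and called under 0.05. The SE of an edgeR log2 fold change was derived as its absolute value divided by the square root of the F statistic of the test. It is therefore approximate, above all at low counts. The steps were tested on counts simulated with this common coefficient of variation for every gene. Such counts lack the differing spread of single genes and libraries, so that test does not bear on single calls. Gene coordinates and exon lengths are from GENCODE release 29 and promoter sequences from RefSeq. Alternatives were RLE scaling, DESeq2 1.42.0, limma-voom, other filters, each line alone, a replicate block, SERPINB3 and SERPINB4 summed, and libraries left out. Library totals taken before the filter, and a mark for list genes under 30 counts in a line, were added after seeing the data.

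The 9 genes, the lists and the naming rule were chosen with earlier results of these data known. The rule names the 9 genes, TTK, up to 3 called genes per list and line with the largest change (at least 5 CPM in the higher group), and the 5 genes most like SERPINB2. From the lists, 1 gene is not reported here.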

Additional observations from a re-analysis of the deposited data

Results flagged for a closer look

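These results were singled out because the change with TTK knockdown differed between the lines by a test of the difference itself (edgeR adjusted p under 0.05, a bar that 25.4% of all tested genes passed). Differences are SCC-15 minus CAL-27, on the log2 scale. Of the genes of the set, PLAUR differed by 1.35 (0.71 in SCC-15 and -0.63 in CAL-27), PLAU by 0.40 and SERPINE2 by 0.46. SERPINB3 differed by -0.92 (-0.64 in SCC-15 and 0.28 in CAL-27) and SERPINB1 by -0.54 (-0.40 in SCC-15 and 0.13 in CAL-27). TTK itself differed by -0.67, with the larger fall in SCC-15.

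Of the 22 genes named from the wider lists, 15 differed between the lines. They were named for a large called change in 1 line, which favours a difference, so this share is not to be read against that of all genes. The difference was above 0 for KRT8 (1.17), PLGRKT (1.19), ITGB5 (0.69), ST14 (0.40), CTSL (0.34), LRP8 (0.28) and HMGB1 (0.26). It was below 0 for SERPINB13 (-1.99), LRP1 (-1.26), TMPRSS4 (-1.12), EGFR (-0.77), SERPINF1 (-0.69), CTSV (-0.47), ITGA3 (-0.33) and CTSB (-0.18). KRT8, PLGRKT and ST14 were called in opposite directions in the lines, as were SERPINB13, LRP1 and EGFR.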

How the results depend on the processing

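Of 1496 gene values recomputed over 22 alternatives, 1439 were kept, 42 lost and 8 gained a call, 5 changed sign and 2 moved. A tested value was kept if its direction and its side of the threshold held. An untested SERPINB2 value was kept if its direction held and it changed by no more than the SE of the main fit. Both values that moved were the SERPINB2 difference between lines, -3.66 and -2.45 without CAL-27 shControl library 2 and 3, against -2.84 ± 0.38. The sign changes were the difference between lines of SERPINB5 (0.02 without both SCC-15 libraries numbered 1, and up to 0.03 without single libraries, from -0.07) and the SERPINB3 difference between SCC-15 and CAL-27 controls when summed with SERPINB4 (-0.13). Without both SCC-15 libraries numbered 1, 4 of the genes of the set were called in SCC-15 (2 higher, 2 lower), and the cause was not tested. Of 17344 genes tested in that fit, 1745 were called higher and 1912 lower in SCC-15. No pairing by replicate number was detected, with deviations of same-numbered libraries correlated between -0.010 and 0.024. Counting noise lowers such a correlation, so shared cultures are not excluded. The replicate block changed no call, with 7 genes of the set called in SCC-15 and 5 in CAL-27. Without single libraries, the genes of the set called numbered 5 to 7 in SCC-15, 4 to 6 in CAL-27, and 5 to 5 for the difference. Genes called over the whole table numbered 4002 to 4760 in SCC-15 and 3741 to 4694 in CAL-27. The list counts ranged, in SCC-15 and CAL-27 in turn, from 0 to 1 and 0 to 1 for other inhibitors, 5 to 5 and 3 to 5 for plasminogen binding, 4 to 5 and 3 to 5 for uPAR partners, 1 to 3 and 1 to 1 for other clade B serpins, 1 to 2 and 2 to 2 for serpins of other clades, and 0 to 1 and 1 to 1 for proteases inhibited by clade B serpins. With the length of the longest transcript, the ranks kept in the order of levels were 5 of 9 in SCC-15 shTTK, 3 of 9 in CAL-27 shTTK and 5 of 9 in CAL-27 shControl cells. SERPINB2 in CAL-27 and SERPINB4 in SCC-15 have the fewest counts, and depth limits what can be said of them.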

Other observations

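Serpins of other clades were 0 higher and 2 lower of 6 tested in each line, against 27.7% of all tested genes called in SCC-15 and 27.3% in CAL-27. In SCC-15, SERPINA3 and SERPING1 held 0 counts and SERPINA1 28 counts in the 6 libraries, so 3 of the 6 had little or nothing to test there. SERPINA1, which encodes alpha-1-antitrypsin, averaged 17.6 ± 2.30 CPM in CAL-27 shTTK and 37.8 ± 1.45 CPM in CAL-27 shControl cells (SD, n = 3 each), a log2 fold change of -1.10 ± 0.10 (edgeR adjusted p = 6.56e-14). SERPINH1, the collagen chaperone of the endoplasmic reticulum, was lower in each line, by -0.21 ± 0.039 in SCC-15 (edgeR adjusted p = 8.14e-06) and -0.27 ± 0.038 in CAL-27 (edgeR adjusted p = 3.17e-08). SERPINF1, the gene of pigment epithelium-derived factor, averaged 7.14 ± 1.96 CPM in SCC-15 shTTK and 10.3 ± 1.34 CPM in SCC-15 shControl cells (-0.54 ± 0.14, edgeR adjusted p = 0.00228). Its libraries overlapped, and without SCC-15 shTTK library 3 the change was -0.37 with an adjusted p of 0.0672, which leaves 1 of these genes called in SCC-15.

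Of the 8 proteases known as targets of clade B serpins, 3 were tested, with 0 called in SCC-15 and 1 higher and 0 lower in CAL-27. Of all tested genes, 27.7% were called in SCC-15 and 27.3% in CAL-27. Cathepsin V (CTSV), a lysosomal cysteine protease of squamous epithelium and thymus, averaged 42.1 ± 2.78 CPM in CAL-27 shTTK and 34.6 ± 0.949 CPM in CAL-27 shControl cells (SD, n = 3 each) and rose by 0.28 ± 0.068 (edgeR adjusted p = 9.15e-04). The edgeR test called 0 of the 3 in SCC-15, where the adjusted p was 0.0627 for CTSV, 0.0764 for CTSS and 0.234 for CTSK. The unadjusted edgeR p was 0.0184 for CTSV, 0.0237 for CTSS and 0.102 for CTSK, and no call is made from these. DESeq2 and limma-voom called 0 at an adjusted p under 0.05. The edgeR count was 1 without SCC-15 shControl library 3 or shTTK library 1 or 3.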
